A study of Mus musculus with 9 samples.

Results

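RNA sequencing compared the muscle of a tumour-bearing mouse given MDC with the muscle of a wild type mouse given PBS, 1 library on each side and 2 of the 9 libraries in the series. The pair is defined by its labels and by the letter B that both table names carry, not by measured values. The tumour MDC library is labelled with tumour status and with the agent MDC, and the wild type library with wild type status and PBS, the buffered saline vehicle. The labels give neither the tumour type, the meaning of MDC, its dose, the muscle that was taken, the strain, the age nor whether animals were pooled. A tumour-bearing mouse given PBS was the third muscle library of set B. Set C held 4 more muscle libraries: a wild type mouse given DKK1, a beta-arrestin knockout given DKK1, a beta-arrestin knockout given PBS, and a second wild type given PBS. The tumour and MDC labels change together in this pair, so their contributions cannot be told apart. The series title concerns LRP6 endocytosis driven by Dkk1 in cancer cachexia.

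Cachexia is the loss of muscle and fat that accompanies many tumours, and in muscle it is known for protein breakdown through ubiquitin ligases such as Fbxo32 (atrogin-1) and Trim63 (MuRF1). Limb muscles mix slow fibres, which are oxidative and use the slow myosin Myh7 with slow troponins, and fast fibres, which use Myh4, Myh1 or Myh2. The mix differs strongly between muscles such as the soleus and the gastrocnemius, and a bulk library reads the mix that was dissected. LRP6 is a co-receptor for Wnt ligands, DKK1 is a secreted inhibitor that binds it, and beta-arrestins help to internalise receptors from the cell surface.

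The tumour MDC library held 26181062 counts and wild type library 1 of the same set 27147790. The other 5 muscle libraries held between 21358854 and 32607835. All 13 skeletal muscle markers were measured at 100 or more counts, with a summed level of 112600 CPM (read counts scaled to library size, with TMM factors) in tumour MDC and 123300 CPM in wild type library 1. A count of 0 allowed a level of up to 0.131 CPM in tumour MDC and 0.138 CPM in wild type library 1, taking 3 counts as its limit. The ribosomal RNA precursor Rn45s took 2.51% of counts in tumour MDC, 1.96% in wild type library 1 and 8.29% in wild type library 2. With 1 library per side no difference has a replicate check and no p-value is given for it. Nothing in the labels says that the wild type libraries came from separate animals.

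Wild type library 1 had the most genes 2-fold or more below all 6 other muscle libraries. Of 11928 genes with 100 or more counts in some muscle library, 64 lay 2-fold or more below all 6 other libraries in tumour MDC (0.537%) and 5 lay that far above them (0.0419%). Such genes can have under 100 counts in both libraries of the pair. Rassf8, 1 of the 64, had 0 counts in tumour MDC and 22 in wild type library 1. In wild type library 1, 260 genes lay 2-fold or more below all others (2.18%) and 57 above (0.478%). Counts above and below were 113 and 25 in wild type DKK1, 44 and 10 in tumour PBS, and 31 and 20 in wild type library 2. They were 20 and 41 in knockout DKK1 and 1 and 43 in knockout PBS. Gene lists and most named genes are therefore also given against wild type library 2 of set C. That comparison also crosses from set B to set C. Across genes, the log2 of CPM plus 1 correlated at 0.966 between tumour MDC and wild type library 1. Between tumour MDC and wild type library 2 the correlation was 0.903, and between the wild type libraries it was 0.889.

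At 2-fold or more, with 100 or more counts in the higher library, 358 of 10178 genes were higher in tumour MDC muscle than in wild type library 1 (3.52%) and 241 were lower (2.37%). The median log2 ratio of all genes tested was -0.01. At 4-fold, 65 genes were higher (0.639%) and 59 lower (0.58%). Scaling by total counts alone moved the median of all genes to a log2 ratio of 0.13 and the split to 478 higher and 185 lower. Against wild type library 2, 1132 of 10725 genes were higher (10.6%) and 1376 lower (12.8%). Past 2-fold in 1 direction against both wild type libraries were 76 higher genes (0.756% of 10048) and 83 lower genes (0.826%).

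The rank of each library among the 7 was counted for the genes past 2-fold. These genes were picked by the ratio of the same 2 libraries, so ranks at the ends follow in part from that choice. Such ranks were not counted over all genes tested. Neither these rank counts nor those for lists below have a share of all genes beside them. Among the 358 higher genes, the tumour MDC library alone was the highest of 7 muscle libraries for 62 (17.3%), and wild type library 1 alone was the lowest for 223 (62.3%). Both were at the ends for 20 genes. Among the 241 lower genes, tumour MDC alone was the lowest for 73 (30.3%) and wild type library 1 alone was the highest for 103 (42.7%), with both at the ends for 51. Against wild type library 2, 48 of the 358 higher genes were 2-fold or more lower in tumour MDC, and 12 of the 241 lower genes were 2-fold or more higher.

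**Figure D1:**
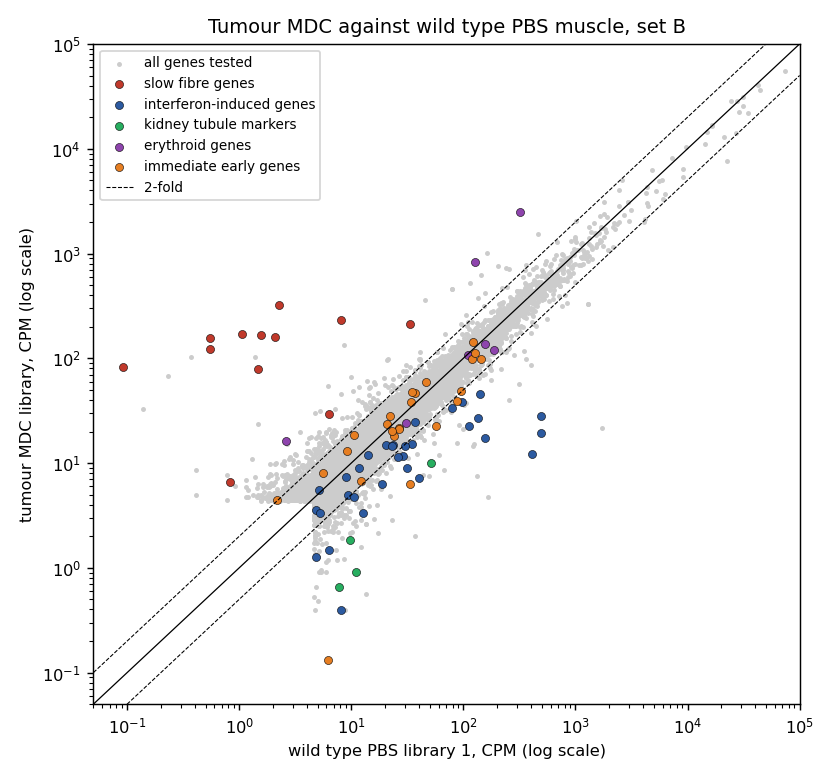
Levels in the tumour MDC library (vertical axis) against wild type PBS library 1 (horizontal axis), both in CPM on log scales, with 0 counts drawn at 3 counts. Each grey point is 1 of 10178 genes with 100 or more counts in the higher library, which cuts the lower left corner. Solid and dashed lines mark equal levels and 2-fold, and the slow fibre genes lie above the lines and the interferon-induced genes mostly below.

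Slow fibre genes were higher in tumour MDC muscle, and they were lowest in wild type library 1. All 12 members of the slow fibre list that are in the tables were tested, 9 of them with 100 counts in tumour MDC alone, and all 12 were past 2-fold higher and 0 lower, against 3.52% and 2.37% of all genes, with a median log2 ratio of 6.51 against -0.01 for all genes. The promoter of Tnnc1, slow troponin C, is shown because it carries the MCAT letters CATTCC (capitals, here on the opposite strand), a motif bound by TEAD factors in muscle genes. The window runs from 250 bases before to 50 after the start site and comes from RefSeq on build GRCm38.p6.
Tnnc1, chr14:31208062-31208361, plus strand: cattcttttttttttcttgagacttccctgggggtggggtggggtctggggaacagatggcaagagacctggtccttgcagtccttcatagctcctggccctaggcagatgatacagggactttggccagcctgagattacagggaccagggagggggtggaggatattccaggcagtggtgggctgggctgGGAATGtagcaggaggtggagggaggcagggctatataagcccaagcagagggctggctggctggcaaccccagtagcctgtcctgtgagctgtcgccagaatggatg
CATTCC was found on either strand in 14.7% of 32851 mouse promoter windows. It occurred in 4 of the 11 slow fibre members that have a window, Myh6, Myh7, Myl3 and Tnnc1, and a match is a description of letters.

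Tnni1, slow troponin I, is on chromosome 1 from 135779434 to 135810989 of GRCm38. It stood at 83.2 CPM in tumour MDC and 9.18 CPM in tumour PBS, against 0.0923 CPM (2 counts) in wild type library 1 and 30.1 CPM in wild type library 2. The ratio over wild type library 1 was 901, with an exact conditional binomial 95% interval of 249 to 7447. That interval, like all of those below, covers counting error only. Outside wild type library 1, the other 6 libraries lay between 2.68 and 244.6 CPM.

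Myh7, the slow myosin heavy chain, stood at 324 CPM in tumour MDC and 33.6 CPM in tumour PBS, against 2.26 CPM in wild type library 1 and 138 CPM in wild type library 2. Its ratio was 143 (108 to 194) over wild type library 1 and its log2 ratio over library 2 was 1.24. Tnnc1 stood at 122 CPM in tumour MDC and 13.8 CPM in tumour PBS, against 0.554 CPM in wild type library 1 and 29.6 CPM in wild type library 2. Both genes were within the range of the set C libraries, where knockout DKK1 muscle had 2097 CPM of Myh7 and 300.2 CPM of Tnnc1, and knockout PBS muscle had 8.37 CPM of Myh7 and 2.35 CPM of Tnnc1.

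Myl2, the slow regulatory light chain, stood at 169 CPM in tumour MDC and 33.2 CPM in tumour PBS, against 1.06 CPM in wild type library 1 and 50.2 CPM in wild type library 2. Myh6, the alpha cardiac myosin that slow fibres can also carry, stood at 157 CPM in tumour MDC and 17.1 CPM in tumour PBS, against 0.554 and 53.7 CPM in wild type libraries 1 and 2. Of the remaining members, Myl3, Tnnt1, Tpm3 and Myoz2 had log2 ratios of 6.28, 6.74, 4.83 and 5.73 over library 1 and 0.92, 1.82, 1.02 and 0.13 over library 2. Myh7b, the calcium pump Atp2a2 and the calcium store protein Casq2 had the smallest, at 2.98, 2.68 and 2.22 over library 1 and 0.03, -0.04 and -0.92 over library 2. Summed over the 12 genes, the level was 1742 CPM in tumour MDC and 321 CPM in tumour PBS, against 58.0 CPM in wild type library 1 and 899 CPM in wild type library 2. It was 1039 CPM in wild type DKK1, 6832 CPM in knockout DKK1 and 189 CPM in knockout PBS muscle.

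Wild type library 1 was the lowest of the 7 libraries for all 12 slow fibre genes. How many of all genes had that library lowest was not counted. Against wild type library 2 the list had 7 members past 2-fold higher and 0 lower, where 10.6% and 12.8% of all genes passed, and a median log2 ratio of 1.13. Tumour PBS muscle over wild type library 1, a comparison that shares that library, had 11 of 12 past 2-fold higher, where 8.7% of all genes passed, and a median of 3.98. Which muscle was dissected is not in the labels, and fewer slow fibres and less slow fibre RNA per cell cannot be told apart in bulk tissue.

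Genes of the sarcomere's Z-disc and stretch response depended on the reference library. Of 18 measured members 4 were past 2-fold higher and 1 lower, where 3.52% and 2.37% of all genes passed, with a median log2 ratio of 0.28. Csrp3, muscle LIM protein, stood at 67.5 CPM in tumour MDC and 17.5 CPM in tumour PBS, against 0.231 CPM in wild type library 1 and 107 CPM in wild type library 2. Ankrd2, an ankyrin repeat protein of slow muscle, stood at 104 CPM in tumour MDC and 38.6 CPM in tumour PBS, against 1.38 and 172 CPM in wild type libraries 1 and 2. Both genes had negative log2 ratios over wild type library 2, at -0.67 and -0.74. Fhl3, a LIM domain protein, was lower in tumour MDC against both, with log2 ratios of -1.56 and -1.32. Against wild type library 2 the list had 1 member higher and 7 lower, where 10.6% and 12.8% of all genes passed, and a median of -0.70.

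Sln (chromosome 9, 53850164 to 53854560), sarcolipin, an inhibitor of the calcium pump, stood at 32.6 CPM in tumour MDC and 9.45 CPM in tumour PBS, against 0 counts in wild type library 1 and 4.49 CPM in wild type library 2. It was at least 236-fold higher in tumour MDC than in wild type library 1, with 3 counts as the limit, and its log2 ratio over wild type library 2 was 2.86. It was the highest of the 7 libraries in tumour MDC, with the others between 0 and 19.5 CPM.

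Of 16 measured fast fibre genes 1 was past 2-fold higher and 2 were lower, where 3.52% and 2.37% of all genes passed, with a median log2 ratio of -0.33. Myh2, the heavy chain of fast oxidative fibres, stood at 1013 CPM in tumour MDC and 767 CPM in tumour PBS, against 164 CPM in wild type library 1 and 2871 CPM in wild type library 2. Myl1, the fast essential light chain, was 2.96-fold lower (2.94 to 2.98) than in wild type library 1, at 7669 CPM in tumour MDC against 22690 CPM. Over wild type library 2 it had a log2 ratio of 0.53. Casq1, the fast calcium store protein, stood at 1983 CPM in tumour MDC and 2242 CPM in tumour PBS, against 4112 and 2564 CPM in wild type libraries 1 and 2. Myh4, the main fast heavy chain, had 55450 CPM in tumour MDC and 36900 CPM in tumour PBS, against 73520 and 27950 CPM in wild type libraries 1 and 2, and did not pass 2-fold. Over wild type library 2 the list had 7 members higher and 3 lower, where 10.6% and 12.8% of all genes passed, and a median of 0.94.

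**Figure D2:**
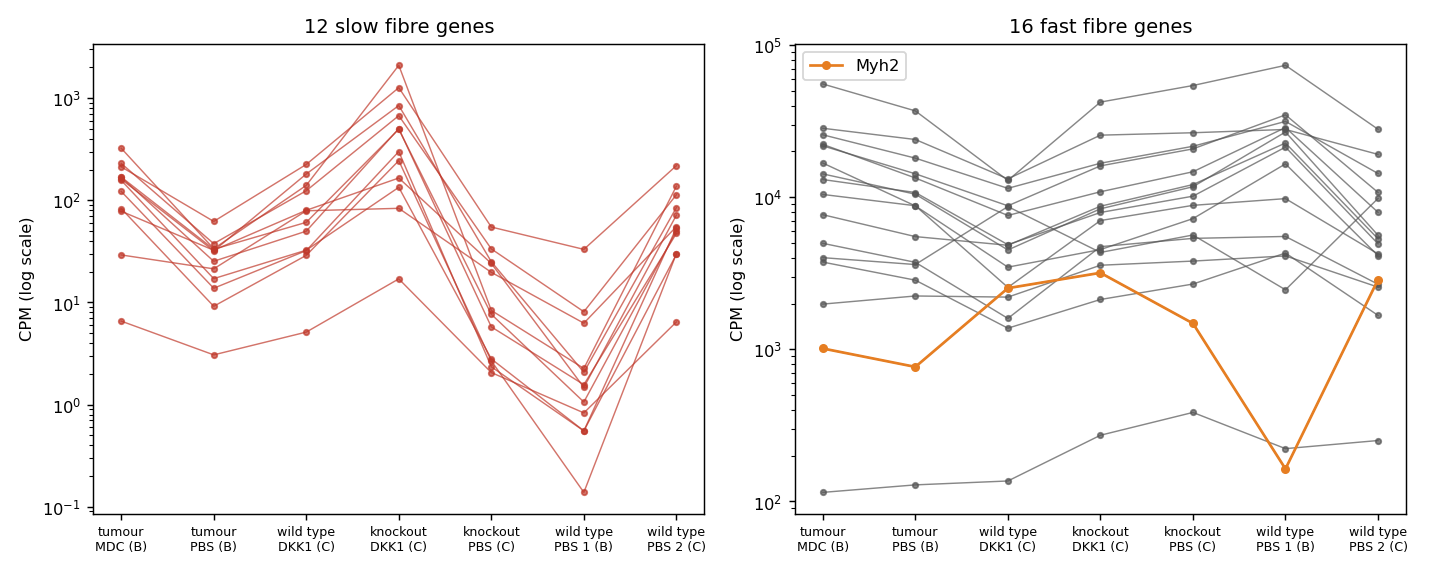
CPM (log axes) of 12 slow fibre genes (left) and 16 fast fibre genes with Myh2 in orange (right) in the 7 muscle libraries; each line is 1 gene and levels under 3 counts are drawn at 3 counts. Slow fibre genes are lowest in wild type PBS library 1 and highest in knockout DKK1, except Myh6, which is highest in tumour MDC.

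Interferon-induced genes were lower in tumour MDC muscle than in wild type library 1. Of 38 members 32 were tested, and 21 were past 2-fold lower and 0 higher, against 2.37% and 3.52% of all genes, with a median log2 ratio of -1.27. The immunity-related GTPases and guanylate-binding proteins, which act against pathogens inside cells and are induced by interferon gamma, made up much of the list. Promoters of 3 GTPases at chromosome 11 are shown because 2 of them carry the GAS letters TTCNNNGAA, an element of interferon gamma responses, next to the ISRE letters, GAAA and GAAA with any 2 bases between them, bound by interferon regulatory factors, and the third has overlapping ISRE matches. They are not all of the list's members with such letters. Tgtp1, also past 2-fold lower, had GAS and ISRE matches and is not shown. Capitals mark the matches, and the windows are from RefSeq on GRCm38.p6.
Irgm2, chr11:58214727-58215026, plus strand: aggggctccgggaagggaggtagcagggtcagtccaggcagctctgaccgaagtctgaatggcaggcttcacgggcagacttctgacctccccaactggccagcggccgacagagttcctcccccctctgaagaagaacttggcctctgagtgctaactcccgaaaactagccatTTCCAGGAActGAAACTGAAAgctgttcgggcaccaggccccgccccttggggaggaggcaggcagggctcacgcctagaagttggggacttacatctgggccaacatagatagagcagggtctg
Igtp, chr11:58199306-58199605, plus strand: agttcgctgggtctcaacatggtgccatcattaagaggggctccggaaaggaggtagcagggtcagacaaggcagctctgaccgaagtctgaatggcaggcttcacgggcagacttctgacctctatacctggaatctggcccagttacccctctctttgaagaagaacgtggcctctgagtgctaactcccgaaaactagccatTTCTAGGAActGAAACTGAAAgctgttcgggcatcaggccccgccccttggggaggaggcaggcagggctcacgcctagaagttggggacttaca
Irgm1, chr11:48871371-48871670, minus strand: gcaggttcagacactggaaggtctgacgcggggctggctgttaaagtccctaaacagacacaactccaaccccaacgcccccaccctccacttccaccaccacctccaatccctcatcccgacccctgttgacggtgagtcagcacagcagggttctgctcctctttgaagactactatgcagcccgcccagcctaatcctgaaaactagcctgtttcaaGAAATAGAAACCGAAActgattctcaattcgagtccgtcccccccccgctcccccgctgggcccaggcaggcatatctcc
The GAS and ISRE letters began 75 and 64 bases before the start site in Irgm2 and 45 and 34 bases before it in Igtp. The ISRE matches of Irgm1 began 30 and 24 bases before the start and overlap. Of the 21 members past 2-fold, 15 had a window. GAS was found in 7 of those and ISRE in 11, where 8.3% and 3.44% of 32851 windows hold them on either strand.

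Irgm2, whose locus overlaps Igtp on chromosome 11 in the annotation, so that reads could be shared, stood at 12.2 CPM in tumour MDC and 20.3 CPM in tumour PBS. It had 409 CPM in wild type library 1 and 29.2 CPM in wild type library 2. Wild type library 1 had 33.7-fold more (29.9 to 38.1) than tumour MDC. Igtp stood at 19.2 CPM in tumour MDC and 20.1 CPM in tumour PBS, against 496 CPM in wild type library 1 and 17.7 CPM in wild type library 2. Outside wild type library 1, Igtp lay between 17.3 and 27.5 CPM in all 6 libraries.

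Iigp1, a GTPase of the same family, stood at 27.9 CPM in tumour MDC and 24.1 CPM in tumour PBS, against 492 and 20.3 CPM in wild type libraries 1 and 2. Irgm1 had a log2 ratio of -2.32 over library 1 and 0.02 over library 2, and Gbp6 of -3.17 and -0.55. Cxcl9, a chemokine induced by interferon gamma, differed in the same direction against both wild type libraries, with 0.392 CPM in tumour MDC and 0.492 CPM in tumour PBS against 8.03 and 6.27 CPM in wild type libraries 1 and 2. Irf1, itself induced, had the highest level of the members that did not pass, at 24.5 CPM in tumour MDC against 37.0 and 19.8 CPM in wild type libraries 1 and 2. Gbp2b, a guanylate-binding protein also singled out after its values were seen, followed the set letter, with 15.3 CPM in tumour MDC and 17.2 CPM in tumour PBS, against 34.5 CPM in wild type library 1 and 0 counts in wild type library 2. The predicted gene Gm4841, chosen after its values were seen, was 78.9-fold lower (72.2 to 86.4) in tumour MDC, at 21.7 against 1711 CPM in wild type library 1, but 1.91 CPM in wild type library 2.

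Wild type library 1 was the highest of the 7 libraries for 29 of the 32 interferon-induced genes. How many of all genes had that library highest was not counted. Summed over the 38 members, the level was 450 CPM in tumour MDC and 461 CPM in tumour PBS, against 2541 CPM in wild type library 1 and 395 CPM in wild type library 2. The other 3 set C libraries lay between 313 and 524 CPM. Of the 32 tested, 6 reached 100 counts in wild type library 1 alone, and 17 of the 26 that reached it in both libraries were past 2-fold lower. Against wild type library 2, 5 of 28 members were higher and 3 lower, where 10.6% and 12.8% of all genes passed, with a median of 0.19. Lymphocyte markers summed to 4.18 CPM in tumour MDC and 3.18 CPM in wild type library 1 over 19 members, none of which reached 100 counts and 6 of which had 0 counts in each library. Their part in the interferon result was not tested.

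Kidney tubule markers were likewise highest in wild type library 1. Umod, the urinary protein uromodulin, stood at 0.914 CPM in tumour MDC and 2.23 CPM in tumour PBS, against 11.1 CPM in wild type library 1 and 0.934 CPM in wild type library 2. Kap, an androgen-regulated protein of the proximal tubule, had 9.97 and 15.4 CPM in tumour MDC and tumour PBS, against 51.8 and 4.0 CPM in wild type libraries 1 and 2. Miox and Slc34a1, an inositol oxygenase and a phosphate transporter of the tubule, had log2 ratios of -3.57 and -2.41. Of the 14 members 4 reached 100 counts, 3 of them in wild type library 1 alone, so their ratios are given as a description. Over the 14 members the sums were 16.5 CPM in tumour MDC and 28.8 CPM in tumour PBS, against 95.4 CPM in wild type library 1 and 10.3 CPM in wild type library 2. Of the 14, 5 had 0 counts in tumour MDC and 2 in wild type library 1. Kidney libraries belong to the same series, and the part of kidney RNA in this and other results was not tested.

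**Figure D3:**
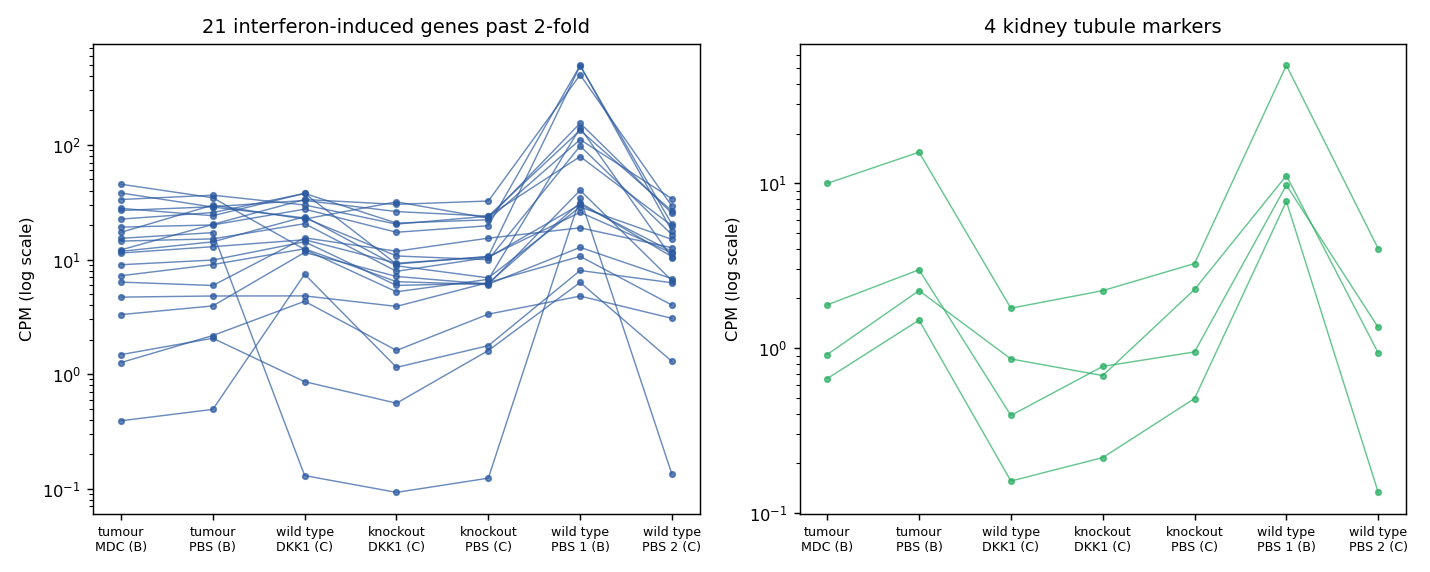
CPM (log axes) of the 21 interferon-induced genes past 2-fold (left) and the 4 kidney tubule markers (right) in the 7 muscle libraries, with levels under 3 counts drawn at 3 counts and each line 1 gene. Both sets peak in wild type PBS library 1, and the line near the bottom in set C is Gbp2b. The peaks follow in part from the choice of genes. The 21 were picked for lower levels in tumour MDC than in that library. The 4 were picked for reaching the minimum count, which 3 of them did in wild type PBS library 1 alone.

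Some genes had the tumour MDC library itself outside the range of the other 6. The 5 genes 2-fold or more above all others were Tmem100, Mss51, Avil, Abcc8 and the clone 2810410L24Rik. All but Tmem100 were singled out after their values were seen. Tmem100, an endothelial membrane protein, stood at 134 CPM in tumour MDC and 59.0 CPM in tumour PBS, against 8.54 and 27.3 CPM in wild type libraries 1 and 2. Mss51, a mitochondrial protein of muscle, stood at 211 CPM in tumour MDC and 92.2 CPM in tumour PBS, against 96.0 and 52.5 CPM in wild type libraries 1 and 2. Both were more than 2-fold higher over each wild type library.

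Globin genes were higher in tumour MDC and in tumour PBS muscle. Hba-a1, alpha globin, stood at 2483 CPM in tumour MDC and 1259 CPM in tumour PBS, against 323 CPM in wild type library 1 and 326 CPM in wild type library 2. Hbb-bs, beta globin, stood at 824 CPM in tumour MDC and 515 CPM in tumour PBS, against 127 and 120 CPM in wild type libraries 1 and 2. Alas2, the first enzyme of haem synthesis in red cells, stood at 16.4 and 15.4 CPM in tumour MDC and tumour PBS, against 2.63 and 4.94 CPM in wild type libraries 1 and 2. Both globins have near-identical copies whose reads cannot be separated. Of the 7 measured erythroid and haem genes these 3 were past 2-fold higher and 0 lower against either wild type library, with a median of -0.01 in the list. Of all genes 3.52% and 2.37% passed over library 1, and 10.6% and 12.8% over library 2. The tumour MDC value of Hba-a1 was the highest of 7, and the set C libraries reached at most 870 CPM. How much blood each muscle held was not tested.

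Immediate early genes, which cells switch on within minutes of a stimulus, included Fosb. It was the 1 member among the 15 lowest ratios over wild type library 1, predicted genes and clones left out. Fosb, an AP-1 subunit on chromosome 7, is shown by its promoter because its ratio was among the lowest. Capitals mark TGACG, the half-site of the cAMP response element, found in 20.8% of windows.
Fosb, chr7:19309996-19310295, minus strand: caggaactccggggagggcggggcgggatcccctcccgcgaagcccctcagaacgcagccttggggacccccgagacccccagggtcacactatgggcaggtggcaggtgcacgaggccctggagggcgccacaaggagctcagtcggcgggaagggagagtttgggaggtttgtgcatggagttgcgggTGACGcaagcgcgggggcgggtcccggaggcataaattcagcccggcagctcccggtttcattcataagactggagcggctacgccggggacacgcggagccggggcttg
Fosb had 0.131 CPM (3 counts) in tumour MDC and 1.51 CPM in tumour PBS, against 6.14 CPM in wild type library 1 and 10.9 CPM in wild type library 2. Wild type library 1 had 47.0-fold more than tumour MDC, with an interval of 15.7 to 231. Fos, another AP-1 subunit, stood at 6.31 CPM in tumour MDC and 25.0 CPM in tumour PBS, against 33.6 and 77.3 CPM in wild type libraries 1 and 2. The other 6 libraries had at least 21.2 CPM of Fos and 1.51 CPM of Fosb, so tumour MDC lay under all of them.

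Arc, a neuronal activity gene added to the account after its values were seen, had 2 counts in tumour MDC, 0.0871 CPM, and 1.13 CPM in tumour PBS, against 1.29 and 12.01 CPM in wild type libraries 1 and 2. Of the 24 measured immediate early genes 1 was past 2-fold higher and 4 were lower, where 3.52% and 2.37% of all genes passed, with a median log2 ratio of -0.18. Over wild type library 2, 0 of 26 were higher and 10 lower, where 10.6% and 12.8% of all genes passed, with a median of -0.69. Egr1, a zinc finger factor, stood at 22.3 CPM in tumour MDC and 42.3 CPM in tumour PBS, against 56.8 and 77.8 CPM in wild type libraries 1 and 2. Gadd45b was lower against wild type library 1 alone, at 38.8 CPM in tumour MDC against 87.6 and 20.5 CPM in wild type libraries 1 and 2. Atf3 was the member past 2-fold higher, at 4.44 CPM in tumour MDC against 2.17 CPM, with 36.7 CPM in wild type library 2. CArG, the element bound by serum response factor, was searched as a letter pattern on both strands. It was found in 0 of 4 windows of the members past 2-fold, against 1.63% of all windows. Sequence more than 250 bases before the start site was not searched. TGACG was found in 3 of the 4.

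Among the 64 genes 2-fold or more below all other libraries was Axin2, which is both a brake on and a target of Wnt signalling. Axin2 (chromosome 11, 108920349 to 108950783) stood at 2.09 CPM in tumour MDC and 4.90 CPM in tumour PBS, against 4.20 CPM in wild type library 1 and 8.14 CPM in wild type library 2. Its 48 counts in tumour MDC and 91 in wild type library 1 were under the minimum of 100, so it was not among the genes tested. Ache, the acetylcholinesterase of the neuromuscular junction, stood at 19.1 CPM in tumour MDC and 43.1 CPM in tumour PBS, against 53.4 and 80.5 CPM in wild type libraries 1 and 2, and passed at 2.79-fold lower (2.50 to 3.12). Kcng4, a potassium channel subunit singled out after its values were seen, stood at 15.7 CPM in tumour MDC and 47.5 CPM in tumour PBS, against 87.3 and 150 CPM in wild type libraries 1 and 2. The neuromuscular junction list had 1 of 17 members past 2-fold higher and 2 lower, with Sln higher and Ostn and Ache lower, where 3.52% and 2.37% of all genes passed. Over library 2 it had 3 of 20 higher and 8 lower, where 10.6% and 12.8% passed. Ostn, osteocrin, a peptide of muscle and bone, stood at 7.53 CPM in tumour MDC and 6.0 CPM in tumour PBS, against 132 and 4.85 CPM in wild type libraries 1 and 2.

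Of 10 measured polyamine genes 0 were past 2-fold higher and 3 lower, where 3.52% and 2.37% of all genes passed. Over wild type library 2 there were 0 and 4, where 10.6% and 12.8% passed. The lowest ratio was that of Amd1, S-adenosylmethionine decarboxylase, which makes the donor for spermidine and spermine. Amd1 stood at 331 CPM in tumour MDC and 386 CPM in tumour PBS, against 1285 CPM in wild type library 1 and 1706 CPM in wild type library 2. Its near-identical copy Amd2 had the same level. Smox, spermine oxidase, stood at 99.2 CPM in tumour MDC and 136 CPM in tumour PBS, against 360 and 531 CPM in wild type libraries 1 and 2. Both tumour libraries were below all 5 libraries without a tumour for Amd1 and Smox. The third, Azin1, an antizyme inhibitor, stood at 25.9 and 37.7 CPM in tumour MDC and tumour PBS, against 55.5 and 71.7 CPM in wild type libraries 1 and 2. Actc1, the cardiac actin of developing and regenerating muscle, stood at 85.8 CPM in tumour MDC and 31.6 CPM in tumour PBS, against 399 and 224 CPM in wild type libraries 1 and 2.

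**Figure D4:**
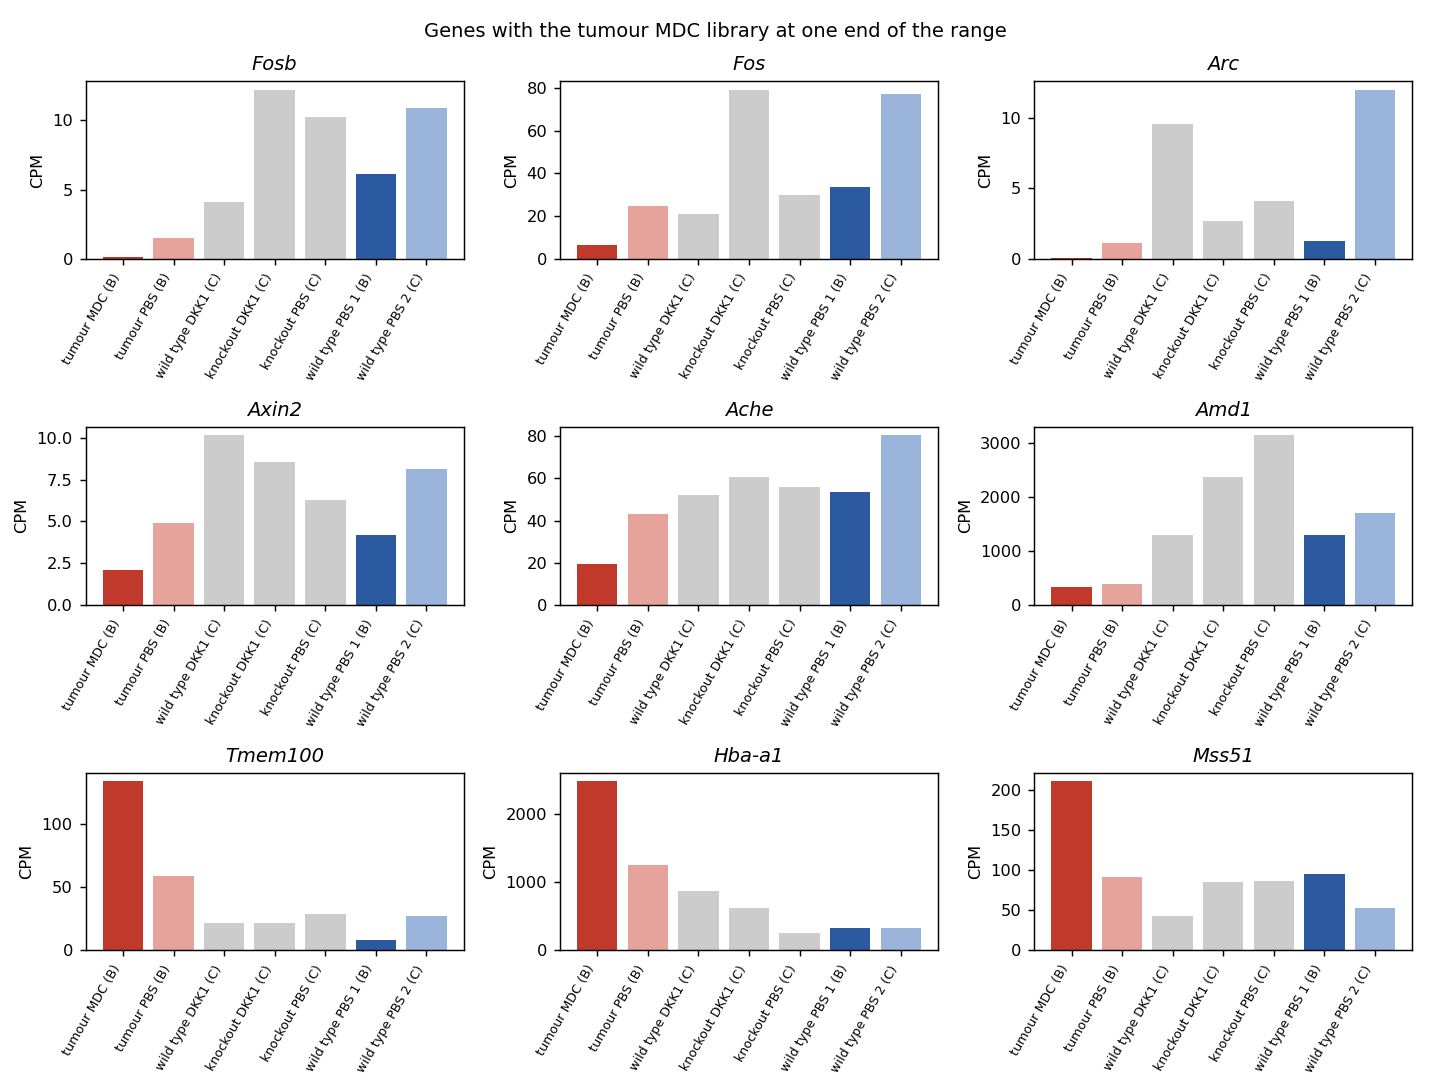
CPM of 9 genes in the 7 muscle libraries, as bars from 0 with a linear axis for each gene; dark red is tumour MDC, light red tumour PBS, grey the other set C libraries, dark blue wild type PBS 1 and light blue wild type PBS 2. Fosb, Fos, Arc, Axin2, Ache and Amd1 are lowest in tumour MDC and Tmem100, Hba-a1 and Mss51 are highest there.

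Of 20 measured glucocorticoid-responsive genes 9 were past 2-fold higher than in wild type library 1 and 0 lower, where 3.52% and 2.37% of all genes passed, with a median log2 ratio of 0.76. Of the 20, 15 had positive and 5 negative log2 ratios, and wild type library 1 was the lowest of 7 for 11. Fkbp5, a chaperone of the glucocorticoid receptor, stood at 66.6 CPM in tumour MDC and 77.8 CPM in tumour PBS, against 9.92 CPM in wild type library 1 and 117 CPM in wild type library 2. Cdkn1a, a cell cycle inhibitor, stood at 32.6 and 25.9 CPM in tumour MDC and tumour PBS, against 7.11 and 26.2 CPM in wild type libraries 1 and 2. Mt2, a metallothionein, stood at 31.5 CPM in tumour MDC and 132 CPM in tumour PBS, against 5.21 and 28.4 CPM in wild type libraries 1 and 2. Against wild type library 2 the list had 0 of 21 members past 2-fold higher and 6 lower, where 10.6% and 12.8% of all genes passed, and a median of -0.36.

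Vascular and nerve support genes also had members past 2-fold higher than in wild type library 1. Of 12 measured pericyte and smooth muscle markers 7 were past 2-fold higher and 0 lower, where 3.52% and 2.37% of all genes passed, with a median of 1.10. Acta2, smooth muscle actin, stood at 57.2 CPM in tumour MDC and 73.5 CPM in tumour PBS, against 16.2 and 81.0 CPM in wild type libraries 1 and 2. Of 24 endothelial markers 8 were past 2-fold higher and 0 lower, with a median of 0.60. Plvap, a protein of vessel pores, stood at 42.0 CPM in tumour MDC and 67.5 CPM in tumour PBS, against 15.7 and 20.6 CPM in wild type libraries 1 and 2.

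Of 15 Schwann cell genes 6 were tested, 3 of them with 100 counts in tumour MDC alone. Past 2-fold were 5 higher and 0 lower, where 3.52% and 2.37% of all genes passed. Prx, periaxin, a protein of myelinating Schwann cells, stood at 5.92 CPM in tumour MDC and 6.29 CPM in tumour PBS, against 1.75 and 15.1 CPM in wild type libraries 1 and 2. Over wild type library 2 the medians were -0.50 for the pericyte list, with 0 of 13 higher and 3 lower, -0.08 for the endothelial list, with 4 of 24 each way, and -1.21 for the Schwann cell list, with 1 of 6 higher and 4 lower, where 10.6% and 12.8% of all genes passed. For all 6 Schwann cell genes wild type library 1 was the lowest of 7. The median of tendon genes was 0.68 over wild type library 1 and 1.39 over library 2, with 2 of 9 past 2-fold higher than in library 1, Scx and Prg4. Of 9 tested over library 2, 5 were higher and 2 lower. Scx, the tendon transcription factor, stood at 15.3 CPM in tumour MDC and 14.1 CPM in tumour PBS, against 7.15 and 5.83 CPM in wild type libraries 1 and 2.

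The interleukin-6, complement, chemokine and macrophage lists had positive medians over wild type library 1 and negative ones over library 2. Of 17 interleukin-6 and acute phase genes 8 were past 2-fold higher and 1 lower, where 3.52% and 2.37% of all genes passed, with medians of 0.85 and -0.27 over the 2 wild type libraries. Lrg1, a secreted acute phase glycoprotein, stood at 53.5 CPM in tumour MDC and 84.1 CPM in tumour PBS, against 11.8 and 50.9 CPM in wild type libraries 1 and 2. Bcl3 and Lbp, a regulator of NF-kappa-B and a protein that binds bacterial lipopolysaccharide, passed against both wild type libraries, with log2 ratios of 1.86 and 1.92 over library 1 and 1.72 and 1.12 over library 2. Serpina3g, a protease inhibitor, was the member that passed lower, at 0.566 CPM in tumour MDC and 1.42 CPM in tumour PBS, against 13.6 and 0.534 CPM in wild type libraries 1 and 2.

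Complement genes had 4 of 15 past 2-fold higher and 0 lower, where 3.52% and 2.37% of all genes passed, with medians of 0.72 and -0.72 over the 2 wild type libraries. C3, the central component, stood at 98.4 CPM in tumour MDC and 217 CPM in tumour PBS, against 41.0 and 135 CPM in wild type libraries 1 and 2. Chemokine genes had 4 of 10 higher and 2 lower, with medians of 0.84 and -0.89. Macrophage markers had 3 of 13 higher and 1 lower, with medians of 0.71 and -1.74. Their summed level over 26 members was 226 CPM in tumour MDC and 418 CPM in tumour PBS, against 154 and 1029 CPM in wild type libraries 1 and 2. Ly6c2, Ccr2 and Lyve1 were the 3 higher macrophage markers, with log2 ratios of 1.39, 1.65 and 1.25 over library 1. Over library 2 their log2 ratios were 3.50, -0.93 and -0.76. Spp1, osteopontin, the 1 that passed lower, was lower against both, at 4.83 CPM in tumour MDC and 8.69 CPM in tumour PBS against 22.0 and 137 CPM in wild type libraries 1 and 2. Over wild type library 2 the macrophage list had 1 of 23 higher and 16 lower, the complement list 0 of 19 and 9, the chemokine list 1 of 14 and 4 and the interleukin-6 list 3 of 19 and 4, where 10.6% and 12.8% of all genes passed. Of 19 neutrophil markers 2 were tested, S100a8 and S100a9, and both were past 2-fold higher against each wild type library. Of all genes, 3.52% were higher over library 1 and 10.6% over library 2. S100a8 had 196 counts in tumour MDC but 68 and 6 in wild type libraries 1 and 2, so it was tested through tumour MDC alone. S100a9 had 453 counts in tumour MDC, 157 in wild type library 1 and 5 in library 2. Of the 19, 8 had 0 counts in wild type library 1. Summed over the 19, neutrophil markers reached 49.6 CPM in tumour MDC and 382 CPM in tumour PBS, against 14.7 and 12.45 CPM in wild type libraries 1 and 2. S100a9, a calcium-binding protein of neutrophils, stood at 19.7 CPM in tumour MDC and 161 CPM in tumour PBS, against 7.24 and 0.222 CPM in wild type libraries 1 and 2.

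**Figure D5:**
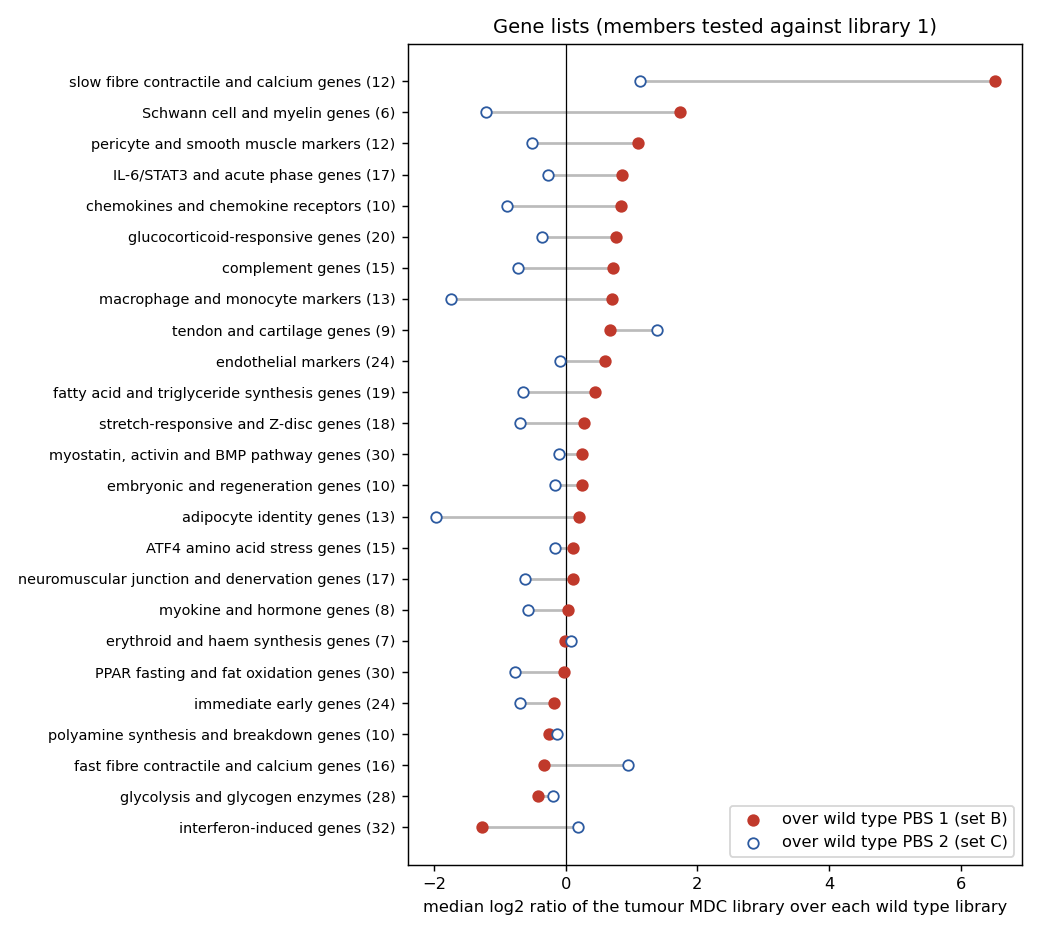
Median log2 ratio of the tumour MDC library over wild type PBS 1 (filled) and over wild type PBS 2 (open) for gene lists with 5 or more members tested against each; the number after each name is the members tested over library 1. The filled and open points lie on opposite sides of 0 for many lists, while slow fibre genes are at 6.51 and 1.13.

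Fat and sugar metabolism genes gave small medians against wild type library 1. Adipocyte genes had 3 of 13 past 2-fold higher and 2 lower, where 3.52% and 2.37% of all genes passed, with medians of 0.21 and -1.97 over the 2 wild type libraries. Car3, Lpl and Cfd were the 3 higher, with log2 ratios of 1.89, 1.49 and 1.23 over library 1. Over library 2 their log2 ratios were 0.06, -0.72 and -2.17. Nnat and Pck1 were the 2 lower. Cidea, a lipid droplet protein, and Gpam, the first enzyme of triglyceride synthesis, lay 2-fold or more below all 6 other libraries. Cidea, singled out after its values were seen, had 8 counts in tumour MDC and 19 in wild type library 1. Those counts were under the minimum of 100, so it was not among the genes tested. Gpam stood at 5.62 CPM in tumour MDC and 18.8 CPM in tumour PBS, against 15.6 and 120 CPM in wild type libraries 1 and 2. Pck1, the enzyme of glyceroneogenesis in fat, stood at 5.66 and 9.47 CPM in tumour MDC and tumour PBS, against 18.5 and 129 CPM in wild type libraries 1 and 2.

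In the comparison with wild type library 2, 0 of 19 adipocyte genes were higher and 13 lower, where 10.6% and 12.8% of all genes passed. Fatty acid and triglyceride synthesis genes had 2 of 19 past 2-fold higher and 1 lower over library 1, where 3.52% and 2.37% of all genes passed, and 1 higher and 9 lower over library 2, with a median of -0.65. Over library 1, Acly and Pnpla3 were the 2 higher and Gpam the 1 lower. The log2 ratios of Acly and Pnpla3 were 1.02 and 1.89 over library 1 and -0.31 and 0.18 over library 2. PPAR and fat oxidation genes had 4 of 30 higher and 3 lower over library 1, and 0 of 31 higher and 10 lower over library 2, with a median of -0.77. Bdh1, a ketone body enzyme higher than in library 1, stood at 7.66 CPM in tumour MDC and 9.97 CPM in tumour PBS against 0.784 and 102 CPM in wild type libraries 1 and 2. Ucp3, a mitochondrial carrier of muscle, and Pdk4, the kinase that holds back pyruvate oxidation, were lower, at log2 ratios of -1.48 and -1.15 over library 1 and -0.86 and -0.95 over library 2. Glycolysis genes had 3 of 28 higher and 1 lower with a median of -0.42, and over library 2 they had 2 higher and 2 lower with a median of -0.19. Ldhb, the lactate dehydrogenase of slow muscle and heart, stood at 97.0 CPM in tumour MDC and 111 CPM in tumour PBS, against 20.7 and 200 CPM in wild type libraries 1 and 2.

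Fbxo32 stood at 593 CPM in tumour MDC and 309 CPM in tumour PBS, against 340 and 220 CPM in wild type libraries 1 and 2, and its 1.74-fold ratio (1.69 to 1.79) did not pass 2-fold. Trim63 stood at 200 CPM in tumour MDC and 188 CPM in tumour PBS, against 243 and 121 CPM in wild type libraries 1 and 2. Of 22 atrophy ligases and FoxO factors 1 was past 2-fold higher and 1 lower, near the 3.52% and 2.37% of all genes, and over wild type library 2, 3 of 23 were higher and 5 lower. Of 14 Wnt receptors, DKK partners and arrestins 1 was higher and 0 lower, and of 12 Wnt targets 0 were higher and 1 lower. With wild type library 2 as the reference these lists had 2 of 17 higher and 6 lower, and 0 of 17 higher and 4 lower, where 10.6% and 12.8% of all genes passed.

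Lrp6 (chromosome 6, 134446476 to 134566965) stood at 33.2 CPM in tumour MDC and 34.5 CPM in tumour PBS, against 34.1 and 60.6 CPM in wild type libraries 1 and 2, a ratio of 0.974 (0.879 to 1.08) over library 1. Lrp5 stood at 9.23 and 17.6 CPM in tumour MDC and tumour PBS, against 5.95 and 32.6 CPM in wild type libraries 1 and 2, and Kremen1, a DKK1 co-receptor, at 42.1 and 40.2 CPM in tumour MDC and tumour PBS, against 41.3 and 104 CPM in wild type libraries 1 and 2. Ckap4, a second DKK1 receptor, stood at 7.40 and 13.3 CPM in tumour MDC and tumour PBS, against 8.81 and 22.2 CPM in wild type libraries 1 and 2. Dkk1 itself had 6 counts in tumour MDC and 0 in the other 6 libraries. Arrb2, beta-arrestin 2, stood at 16.02 CPM in tumour MDC and 13.5 CPM in tumour PBS, against 7.47 and 8.01 CPM in wild type libraries 1 and 2, a 2.14-fold ratio (1.78 to 2.60) past 2-fold, and Arrb1 at 18.5 and 19.6 CPM in tumour MDC and tumour PBS, against 17.0 and 20.7 CPM in wild type libraries 1 and 2. Cish, an inhibitor of cytokine signalling, stood at 8.18 CPM in tumour MDC and 101 CPM in tumour PBS, against 11.5 and 7.43 CPM in wild type libraries 1 and 2, a 0.713-fold ratio that did not pass.

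Of 59 lists, 27 were named because enough members passed. Of those not described above, the embryonic and regeneration list had 2 of 10 members higher and 1 lower, the BMP pathway list 3 of 30 higher and 0 lower, the ATF4 stress list 1 of 15 higher and 2 lower, the myokine list 0 of 8 higher and 2 lower, and the cardiac list 2 of 3 higher and 1 lower, where 3.52% and 2.37% of all genes passed. With wild type library 2 the embryonic list had 1 of 11 higher and 2 lower, the BMP list 3 of 32 and 7, the ATF4 list 2 of 20 and 7, the myokine list 0 of 9 and 2, and the cardiac list 2 of 4 and 2. Over that library 10.6% of all genes were higher and 12.8% lower. Of the other 32 lists, 3 had no member tested and 8 had members tested with 0 past 2-fold. Among these 32 were autophagy genes (0 of 26 either way), proteasome subunits (0 of 31), respiratory chain subunits (0 of 45) and cytosolic ribosomal proteins (0 of 48). In the comparison with wild type library 2, 39 of the 48 ribosomal protein genes were higher and 2 lower, with a median of 1.56, and tumour MDC was the highest of the 7 libraries for 37. Summed over these genes, the level followed the set letter. In set B it was 18290 CPM in tumour MDC, 16670 CPM in tumour PBS and 15040 CPM in wild type library 1. The set C libraries lay between 7282 and 10130 CPM. Over wild type library 2, 11 of 45 respiratory chain genes were higher and 1 lower, 7 of 31 proteasome genes were higher and 0 lower, and 2 of 26 autophagy genes were higher and 0 lower, where 10.6% and 12.8% of all genes passed.

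A replicated fit to all 7 muscle libraries, in which the wild type pair supplies the spread, called 0 of 15482 genes for tumour MDC against that pair at an adjusted p of 0.05 with edgeR's quasi-likelihood test, with 231 at an unadjusted p under 0.05. The wild type pair lies across sets B and C and gave a biological coefficient of variation of 0.498 with 1 residual degree of freedom. DESeq2 called 6 genes higher and 5 lower, with 283 unadjusted, and limma-voom 0 with 89 unadjusted. The DESeq2 calls were Hba-a1, Hba-a2, Hbb-bs, Hbb-bt, Hbb-b1 and Hbb-b2 higher, which are 3 pairs of near-identical copies and not 6 separate signals, and Fosb, Fos, Kcng4, Spp1 and Nnat lower.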

How the data were processed

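RNA from mouse muscle was sequenced in 7 libraries, of which the tumour MDC library and the wild type PBS library of set B were compared here, and kidney libraries were not used. Each deposited table has unnormalised read counts per gene and an RPKM column, and RPKM recomputed here from the deposited counts differed by at most 0.0005%. Per the submitters' processing notes reads were aligned with HISAT2 2.1.0 to mm10, and the counting program, annotation and strand setting were not given in the sources used here. Counts were scaled with TMM (edgeR 4.0.16, R 4.3.3). A gene was tested with 100 or more counts in the higher library and called at 2-fold, with 0 counts set to 3. A gene under 100 counts in the other library was thus tested only through the library with more counts. Ratios have exact conditional binomial 95% intervals. With 1 library per side no test was made, and the edgeR fit (filterByExpr, minimum count 10) with 7 libraries assumes that lone libraries vary like the wild type pair. Named genes were the 15 highest and lowest ratios without predicted genes and clones, up to 4 per list and direction and a fixed panel. Genes marked as such were chosen after their values were seen. So were genes named only because tumour MDC lay 2-fold or more outside all other muscle libraries, such as Mss51, Avil, Abcc8, Kcng4 and Cidea. The members, lists and rules were chosen with earlier results of these data known. Near-identical copies and antisense overlaps were counted once in lists, while Irgm2 and Igtp, which overlap, were both counted. Positions are GRCm38, and promoters are from RefSeq. The methods were tested on simulated data. Some results are not reported here.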

Additional observations from a re-analysis of the deposited data

How the results depend on the processing

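Counts of genes moved with the minimum count. With 50 counts 582 genes were higher and 377 lower than in wild type library 1, and 119 and 137 against both wild type libraries. With 300 counts these were 183 and 126, and 47 and 43. With a minimum just above the floor of 3 counts, chosen after seeing the data in place of a minimum of 1 count, at which both libraries can lie at the floor, they were 1489 and 1295, and 431 and 619. At 4-fold 65 genes were higher and 59 lower. DESeq2 size factors, TMM over set B, total counts and a prior count of 2 gave counts of higher genes between 349 and 481 and of lower genes between 180 and 241. Set B scaling could not be run for the counts against both wild type libraries, since library 2 is in set C. DESeq2 in place of edgeR called 6 genes higher and 5 lower. Leaving out wild type library 1, with library 2 in its place, gave 1132 higher and 1376 lower, and the mean of both wild type libraries gave 221 higher and 791 lower. Leaving out either wild type library in the edgeR fit leaves no residual degree of freedom, so no test could be given. No paired analysis was possible because no label ties libraries of different groups to 1 animal. The cause of the differences between wild type libraries was not tested.

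Medians of 16 further described lists, within 2-fold over wild type library 1, had the other sign over library 2. Among list medians and genes named by rule that were past 2-fold over library 1, leaving out genes chosen after their values were seen (Gm4841 at 3.50 over library 2 and Gbp2b, with 0 counts there, at least 6.84 with 3 counts as the limit), these log2 ratios turned their sign with library 2 as the reference: the median of interferon-induced genes at 0.19, the median of pericyte and smooth muscle markers at -0.50, the median of Schwann cell and myelin genes at -1.21, the median of kidney tubule markers at 1.32, Acly at -0.31, Acta2 at -0.50, Ankrd2 at -0.73, Atf3 at -3.05, Bdh1 at -3.74, Bmp6 at -1.08, C3 at -0.45, C4b at -1.17, Ccl9 at -0.49, Ccr2 at -0.93, Cd36 at -0.62, Cfd at -2.17, Cfp at -0.23, Csrp3 at -0.67, Cxcl14 at -0.016, Cyp2j5 at 0.84, Ddit4 at -1.38, Drp2 at -0.62, Fhl1 at -2.04, Fkbp5 at -0.82, Gadd45b at 0.92, Igtp at 0.12, Iigp1 at 0.46, Kap at 1.32, Kcnj16 at 0.97, Klhl34 at -1.85, Ldhb at -1.05, Lpl at -0.72, Lyve1 at -0.76, Miox at 2.88, Myh11 at -0.85, Myh2 at -1.50, Myl1 at 0.53, Myom3 at -1.22, Ostn at 0.64, Pigr at 1.55, Plin5 at -1.38, Prg4 at -1.06, Prx at -1.35, Rgs5 at -1.16, Serpina3g at 0.084, Slc2a1 at -0.37, Slc34a1 at 0.45, Steap4 at -0.33. With the mean of both wild type libraries they turned for the median of Schwann cell and myelin genes at -0.43, Atf3 at -2.13, Bdh1 at -2.75, Bmp6 at -0.36, C4b at -0.39, Ccr2 at -0.15, Cd36 at -0.015, Cfd at -1.30, Ddit4 at -0.61, Fhl1 at -1.12, Klhl34 at -0.87, Ldhb at -0.19, Lpl at -0.004, Lyve1 at -0.076, Myh11 at -0.085, Myh2 at -0.58, Myom3 at -0.25, Plin5 at -0.64, Prg4 at -0.31, Prx at -0.51, Rgs5 at -0.39. Depth limits genes near 3 counts, such as Fosb, Arc and Dkk1 in tumour MDC.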
